A study of Drosophila melanogaster with 6 samples.

Results

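The salivary glue genes are the 10 Drosophila melanogaster genes Sgs1, Sgs3, Sgs4, Sgs5, Sgs5bis, Sgs7, Sgs8, ng1, ng2 and ng3, taken by symbol out of 16196 genes with counts. Each had 1 RefSeq transcript in the files, and all 60 of their counts were whole numbers within 1e-06. RNA came from whole larvae of the 3rd instar on day 4 after egg laying, with 1 library for each of 6 genotypes. The control carried a Tubulin Gal4 driver and an S-T chromosome (genotype Tublin Gal4/S-T in the labels) and no UAS transgene, and its label also calls it wild type. The other 5 genotypes carried the same driver with UAS-C1, UAS-C2, UAS-C3, UAS-C4 or UAS-C5. Each UAS transgene holds a different gene of the newt Notophthalmus viridescens, placed by phiC31 integrase at an attP site, and each library stands for a single transgenic strain. Tubulin Gal4 is active in nearly all tissues, salivary glands included. Neither the sex of the larvae nor how many went into a library is stated in the labels.

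Larval salivary glands make glue in the second part of the last larval instar. The steroid hormone ecdysone turns the glue genes on, the proteins are packed into secretory granules, and at pupariation the glue is expelled and fixes the pupal case to a surface. Glue genes are then shut off as ecdysone rises further and late salivary gland genes, such as most of the Eig71E cluster, come on. Sgs1, Sgs3 and Sgs4 encode long mucin-like proteins with threonine-rich repeats, which are heavily glycosylated. Sgs7 and Sgs8 encode short cysteine-rich proteins related to the end of Sgs3, and Sgs5 and Sgs5bis are a pair of short paralogs without such repeats. The ng ("new glue") genes lie in the same puff as Sgs4 and encode small secreted proteins.

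The 10 genes fall into 4 places of the genome (dm6, Release 6). Sgs8, Sgs7 and Sgs3 lie together on chromosome 3L, 11508967 to 11513402, with Sgs8 on the minus strand and 466 bp of spacer to Sgs7 on the plus strand, and each has 2 exons. Sgs5bis and Sgs5 lie 304 bp apart in the same orientation on chromosome 3R, 17594386 to 17596112, with 3 exons each. Sgs1 lies alone on chromosome 2L, 4937409 to 4941423, and has the longest coding sequence, 3858 nt. The shortest, 222 nt, is that of Sgs7. On the X chromosome ng2, ng3, ng1 and Sgs4 span 11.0 kb from 3240026 to 3251040, and all 4 are genes of 1 exon that lie in introns of dnc, a phosphodiesterase gene. ng3 and ng1 are transcribed away from each other across 327 bp.

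The 6 libraries held 75131812 to 86975388 counts. Levels are given as counts per 1000000 counts (CPM) after scaling with TMM factors, a correction for differences in RNA make-up. The 11602 genes whose mean over the libraries reached 1 CPM were compared. The 10 glue genes all passed this filter, but ng1 and ng2 did so through C2, so their difference in that library was a condition of passing. With 1 library per genotype no difference has a replicate check or a p-value, and every comparison is between libraries. A gene was called higher or lower than the control at a fold of at least 2 with an exact 95% Clopper-Pearson interval of the ratio that excluded 1, which covers counting error only. All 5 comparisons share the control library. RNA of 17 male germline genes summed to 1398 CPM in the control and 2980 in C4 but to between 11.8 and 16.7 in C1, C2, C3 and C5. The larval tissue was checked by its markers, and summed RNA of muscle, fat body, larval cuticle and midgut genes was present in every library.

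Glue RNA was highest in C2, lowest in C3 and near the control in C1 and C4. The 10 genes held 4.17% of the counts on genes in C2, 3.41% in C5, 2.32% in C4, 2.09% in C1, 2.08% in the control and 0.0801% in C3 (exact Clopper-Pearson interval 0.0795 to 0.0808). In TMM-scaled CPM the sums were 46894 in C2, 37674 in C5, 21856 in C1, 19523 in C4, 19012 in the control and 802 in C3. In whole larvae, fewer gland cells and less RNA per gland cell cannot be told apart.

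**Figure D1:**
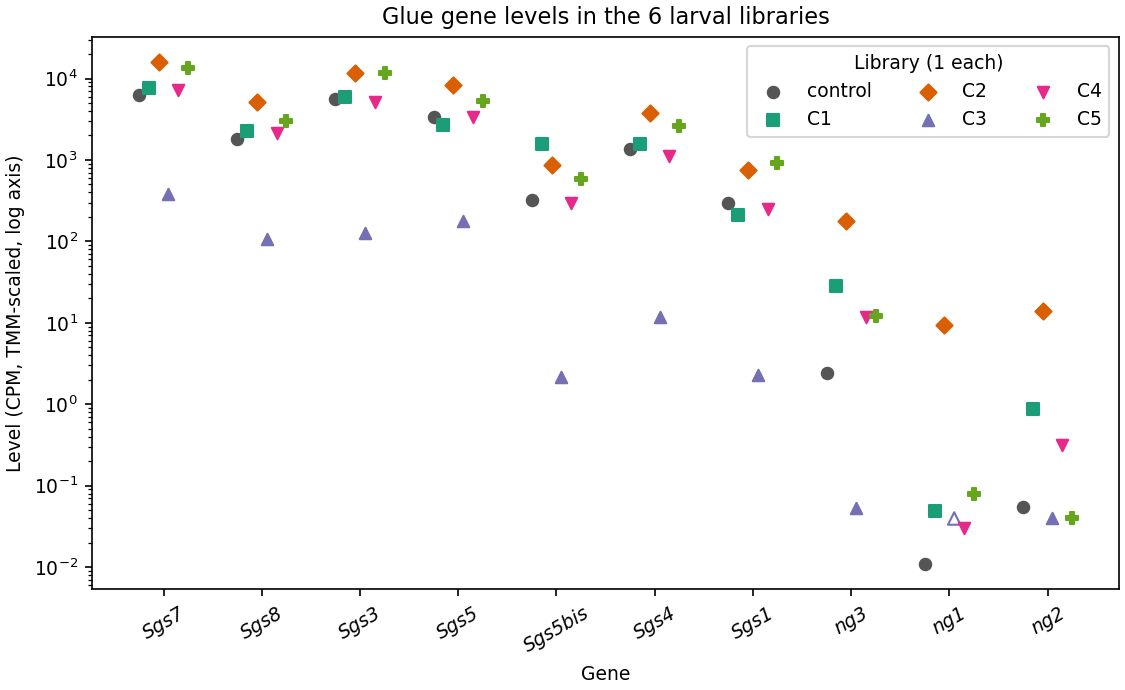
Level of each glue gene in the 6 libraries (y axis, TMM-scaled CPM on a log axis, 1 point per library), with Sgs genes on the left and ng genes on the right. C3 is lowest for every Sgs gene and for ng3, and the open triangle marks the floor of 3 counts for ng1 in C3, which had 0 counts.

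The genes of the chromosome 3L cluster had the most RNA. Sgs7 stood at 16013 CPM in C2, 13464 in C5, 7548 in C1, 7227 in C4, 6296 in the control and 378 in C3. Its divergent neighbour Sgs8 measured 5156, 3042, 2264, 2120.5, 1833 and 106 CPM in the same order of libraries. Both genes were thus highest in C2 and lowest in C3. The repeat protein gene Sgs3 was at 11776 CPM in C2, 11666 in C5, 5957 in C1, 5559 in the control, 5158 in C4 and 125 in C3. For Sgs3, C2 and C5 differed by a fold of 1.01, and C1, the control and C4 lay within a fold of 1.08 of the next in order. C3 was 41.1-fold below the next library, C4.

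The paralogs on chromosome 3R did not follow the same order. Sgs5 measured 8406 CPM in C2, 5353 in C5, 3351 in C4, 3338 in the control, 2720 in C1 and 176 in C3. C4 and the control could not be told apart for Sgs5 (log2 ratio 0.01, an interval that held 0). Sgs5bis was at 1572 CPM in C1, 857 in C2, 584 in C5, 323 in the control, 293 in C4 and 2.15 in C3. Sgs5bis was thus highest in C1, 1.83-fold above C2, while Sgs5 in C1 was 1.23-fold below the control.

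The other mucin genes, Sgs4 and Sgs1, showed the widest falls in C3 beside Sgs5bis. Sgs4 stood at 3735 CPM in C2, 2627 in C5, 1555 in C1, 1365 in the control, 1114 in C4 and 11.7 in C3. Sgs1 measured 926 CPM in C5, 751 in C2, 295 in the control, 247 in C4, 212 in C1 and 2.30 in C3. Under TMM scaling Sgs1 was the only Sgs gene highest in C5, 1.23-fold above C2. With plain CPM, without TMM factors, Sgs3 was also highest in C5 (log2 ratio to the control 0.794, against 0.785 in C2). Over the 6 libraries the highest level exceeded the lowest 42.3-fold for Sgs7, 47.8-fold for Sgs5, 48.6-fold for Sgs8 and 93.8-fold for Sgs3. For Sgs4, Sgs1 and Sgs5bis the factor was 319, 402 and 732.

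The ng genes had fewer counts than the Sgs genes in every library. ng3 had 11843 counts in C2 (177 CPM), 2326 in C1 (28.0 CPM), 1146 in C4 (11.6 CPM), 902 in C5 (12.0 CPM), 222 in the control (2.41 CPM) and 4 in C3 (0.0527 CPM). C4 and C5 could not be told apart for ng3, and each other step in the order was at least 2.33-fold. ng2 had 941 counts in C2, 73 in C1, 31 in C4, 5 in the control and 3 in both C5 and C3. ng1 had 632 counts in C2, 6 in C5, 4 in C1, 3 in C4, 1 in the control and 0 in C3. For the count of 0 in C3 the floor of 3 counts stands for 0.0395 CPM, and the exact interval reaches 0.0486 CPM. ng1 thus had more than 6 counts only in C2, and the order of its other 5 libraries could not be resolved at this depth. ng1 and ng2 are close copies of each other, so reads they share could have been split or moved by the counting.

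Levels of different genes were compared per length, as RPKM (reads per kilobase of transcript and 1000000 reads) from the authors. Sgs7 had the highest RPKM of the 10 genes in all 6 libraries, from 1034 in C3 and 19359 in the control to 39512 in C2. It ranked 2 among all genes in the control and C1, 1 in C2, C4 and C5, and 129 in C3. Sgs8, Sgs5 and Sgs3 came next, between 4947 and 5181 RPKM in the control and between 8416 and 11384 in C2. Sgs3 had slightly more RPKM in C5 (8556) than in C2 (8416). Sgs4 had 1415 RPKM in the control and Sgs5bis 579. Sgs1 had 73.8 RPKM in the control and 191 in C5, the lowest of the Sgs genes in each library. Per length ng3 was below Sgs1 in the control (4.01 RPKM), C3, C4 and C5, near it in C1 (40.7 against 46.2 RPKM) and above it in C2 (236 against 151 RPKM). The 3 ng genes summed to 271 RPKM in C2, 42.2 in C1, 21.5 in C4, 16.6 in C5, 4.12 in the control and 0.141 in C3.

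**Figure D2:**
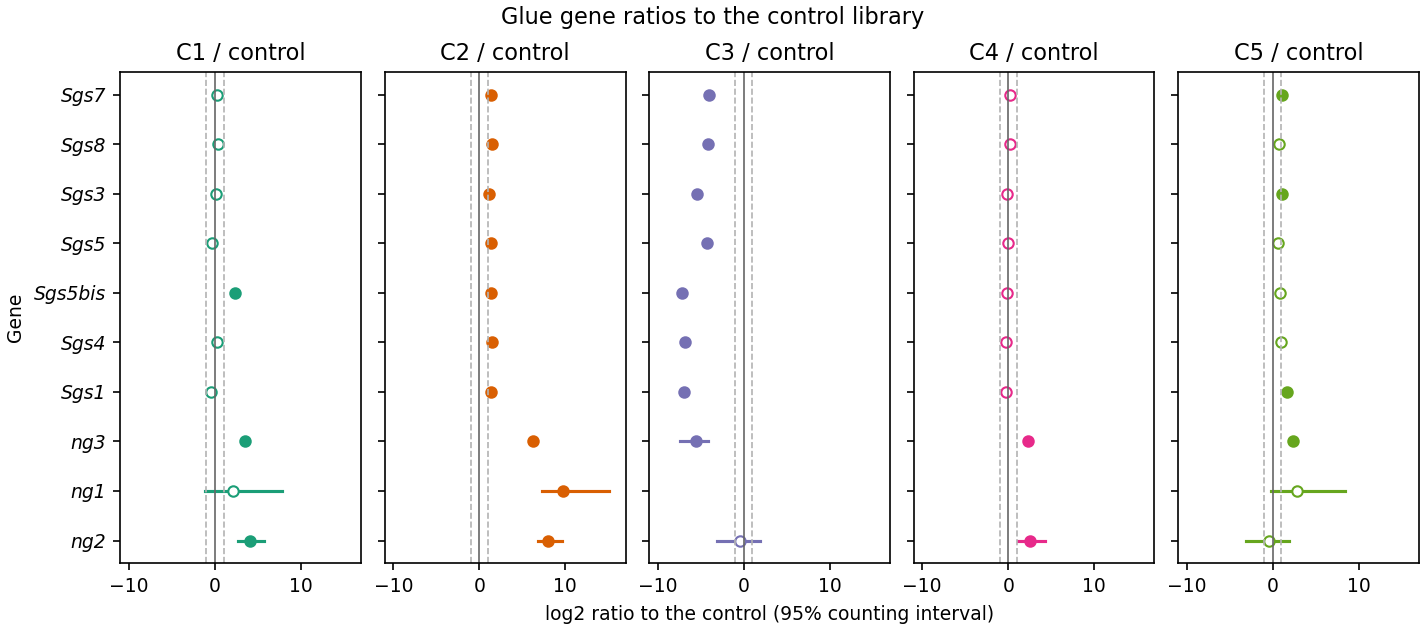
Log2 ratio of each glue gene to the control in C1 to C5 (x axis, bars are 95% counting intervals, dashed lines mark a 2-fold difference, 1 library per genotype). Filled points passed the rule for higher or lower, and ng1 has no point in C3 and C4, where both counts were at or under 3.

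In C2 all 10 genes were at least 2-fold higher than in the control, where 8.96% of all compared genes were called higher and 20.0% lower. For ng1 and ng2 this was a condition of passing the filter. With a filter of 5 CPM, which leaves out ng1 and ng2, 8 genes were higher and their median log2 ratio was 1.38. The 7 Sgs genes lay close together, from 2.12-fold (Sgs3, log2 1.08) to 2.81-fold (Sgs8, log2 1.49), a range of 0.41 on the log2 scale. The 3 ng genes differed more. ng3 was 73.5-fold higher (log2 6.20, interval 6.01 to 6.40), ng2 259-fold (log2 8.02, interval 6.79 to 9.65) and ng1 871-fold on 1 control count (log2 9.77, interval 7.28 to 15.07). The median log2 ratio of the 10 genes was 1.43, beside -0.03 over all compared genes. Sgs3 in C2 came to 1.08 under TMM but to 0.79 with plain CPM and 0.81 when scaled on ribosomal protein genes, which is below 2-fold.

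In C3 8 of the 10 genes were lower than in the control and none was higher, where 21.8% of all compared genes were called lower and 6.02% higher. The size of the decrease differed among the Sgs genes. Sgs7, Sgs8 and Sgs5 were 16.6-fold, 17.3-fold and 19.0-fold lower, while Sgs4, Sgs1 and Sgs5bis were 117-fold, 128-fold and 150.4-fold lower. Sgs3 lay between them at 44.3-fold. ng3 was 45.8-fold lower (log2 -5.52, interval -7.40 to -4.14), and ng1 and ng2 had at most 5 counts in either library. The median log2 ratio was -5.47 over the 9 genes with a ratio, beside -0.01 over all compared genes.

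The C5 library had 4 genes higher and none lower, where 4.86% of all compared genes were called higher and 18.6% lower. These were Sgs1 (3.13-fold), Sgs7 (2.14-fold), Sgs3 (2.10-fold) and ng3 (4.99-fold, log2 interval 2.11 to 2.54). Sgs4, Sgs5bis, Sgs8 and Sgs5 had folds of 1.92, 1.81, 1.66 and 1.60, under the threshold of 2. The median log2 ratio was 1.01. With plain CPM, ribosomal protein scaling or the authors' RPKM, Sgs3 and Sgs7 also fell under 2-fold and 2 genes were called higher, Sgs1 and ng3.

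In C1 3 genes were higher than in the control and none was lower, where 5.12% of all compared genes were called higher and 18.0% lower. Sgs5bis was 4.87-fold higher (log2 2.28, interval 2.27 to 2.30), ng2 16.2-fold on 5 control counts (log2 interval 2.73 to 5.68) and ng3 11.6-fold (log2 3.54, interval 3.34 to 3.74). The other 6 Sgs genes lay between -0.48 (Sgs1) and 0.30 (Sgs8) on the log2 scale. The C4 library had 2 genes higher, ng2 (5.79-fold on 5 control counts) and ng3 (4.82-fold), and none lower, where 9.02% of all compared genes were called higher and 3.15% lower. Its 7 Sgs genes lay between -0.29 (Sgs4) and 0.21 (Sgs8). ng3 was called higher than the control in C1, C2, C4 and C5 and lower in C3.

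Since C4 was the other library with male germline RNA, the rest were also set against it, a choice made after seeing the data. In C2 10 glue genes were higher than in C4 (9.92% of all compared genes were called higher and 21.6% lower). Among them were ng1 and ng2, which passed the filter through C2. In C3 9 were lower (24.3% called lower, 8.08% higher). In C1 3 were higher (8.51% called higher, 21.0% lower), again Sgs5bis, ng2 and ng3. In C5 3 were higher and 1 was lower (7.65% called higher, 21.4% lower). The 3 were Sgs1, Sgs3 and Sgs4 at 1.91, 1.18 and 1.24 on the log2 scale, and the 1 was ng2 at -2.97, with 3 counts in C5 against 31 in C4.

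The make-up of glue RNA within a library does not depend on the scaling between libraries. Sgs7 held 33.1% of the glue counts in the control, between 34.1% and 37.0% in C1, C2, C4 and C5, and 47.2% in C3 (exact interval 46.8 to 47.6). The share of Sgs3 was 29.2% in the control, 25.1% to 31.0% in C1, C2, C4 and C5, and 15.6% in C3 (15.4 to 15.9). Sgs4 held 5.71% to 7.96% outside C3 and 1.46% in C3 (1.36 to 1.56). Sgs5bis held 1.70% in the control and at most 1.83% in C2, C4 and C5, against 7.19% in C1 (7.15 to 7.23) and 0.267% in C3 (0.228 to 0.312). Glue RNA in C3 was thus poorer in the long mucins and Sgs5bis and richer in the short Sgs7, Sgs8 and Sgs5.

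**Figure D3:**
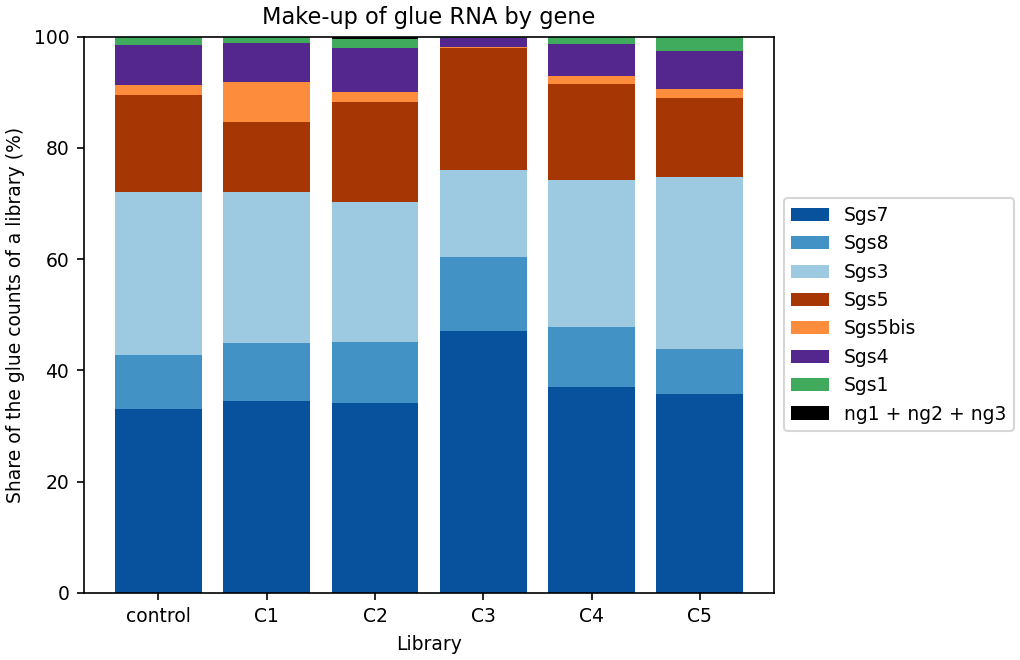
Share of the summed glue counts that each gene held in a library (y axis, percent, 1 stacked bar per library). Sgs7 takes 47.2% in C3, and Sgs5bis takes 7.19% in C1 against at most 1.83% in the other libraries.

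Ratios between glue genes of 1 locus were compared next. Counts of Sgs7 over those of Sgs8, which start next to each other, were 4.43 in C5 (interval 4.41 to 4.45), 3.56 in C3 (3.48 to 3.65), 3.44 in the control, 3.41 in C4, 3.33 in C1 and 3.11 in C2. This ratio stayed between 3.11 and 4.43 while the level of Sgs7 spanned 42.3-fold. Sgs7 over Sgs3, 1973 bp apart, was between 1.13 and 1.40 outside C3 and 3.02 in C3 (2.95 to 3.09). Sgs5 over Sgs5bis was 10.3 in the control, 9.81 in C2, 11.4 in C4 and 9.17 in C5, but 1.73 in C1 (1.72 to 1.74) and 82.0 in C3 (70.3 to 96.3). Sgs4 over ng3, which share the X-linked puff, ran from 21.1 in C2 and 55.5 in C1 to 566 in the control.

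The nearest genes that passed the filter, up to 122118 bp from a glue locus, were set beside the glue genes. Of 18 neighbouring protein-coding genes that passed the filter, 8 were lower in C3 and none higher, beside 21.8% of all compared genes called lower and 6.02% higher. In C2 3 were higher and 3 lower, beside 8.96% and 20.0%. CG14265, 3339 bp from ng2, had 141 CPM in C2, 71.0 in the control, 65.1 in C4, 45.5 in C1, 33.7 in C5 and 0.250 in C3, 284-fold lower in C3 than in the control. It was also called lower in C5. Pig1, a pre-intermoult gene of the salivary gland that lies between ng1 and Sgs4, measured 128 CPM in C2, 28.8 in C5, 23.2 in the control, 22.6 in C1, 11.4 in C4 and 3.87 in C3. The host gene dnc was 2.04-fold higher in C2 under TMM scaling and within 2-fold of the control elsewhere.

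CG7606, 423 bp beyond Sgs5, measured 105 CPM in C3 against 572 in the control (5.47-fold lower) and stayed within 2-fold in the other libraries. Next to Sgs1, hoe2 and hoe1 were 5.03-fold and 2.63-fold lower in C3, and hoe1 was 3.36-fold higher in C2. On the other side of Sgs1, mRpL24 and betaggt-I stayed within 2-fold in every library. So did Fuca and chrb on the sides of the chromosome 3L cluster, Prx3, Hmx and sll around Sgs5, and CG3939 and Myc around dnc. Of these, Hmx lay 25288 bp, Prx3 47854 bp, CG3939 63802 bp and Myc 122118 bp from the glue locus. CG33500 and CG7512, 63 bp and 302 bp from the chromosome 3L cluster, did not pass the filter. The remaining 3 compared neighbours, Vha16-2, CG11714 and CG10793, were lower in C1, C2, C3 and C5, the libraries with little male germline RNA. These 3 passed the filter only through the control and C4. Vha16-2 and CG10793 lay 33414 bp and 63703 bp from a glue locus.

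**Figure D4:**
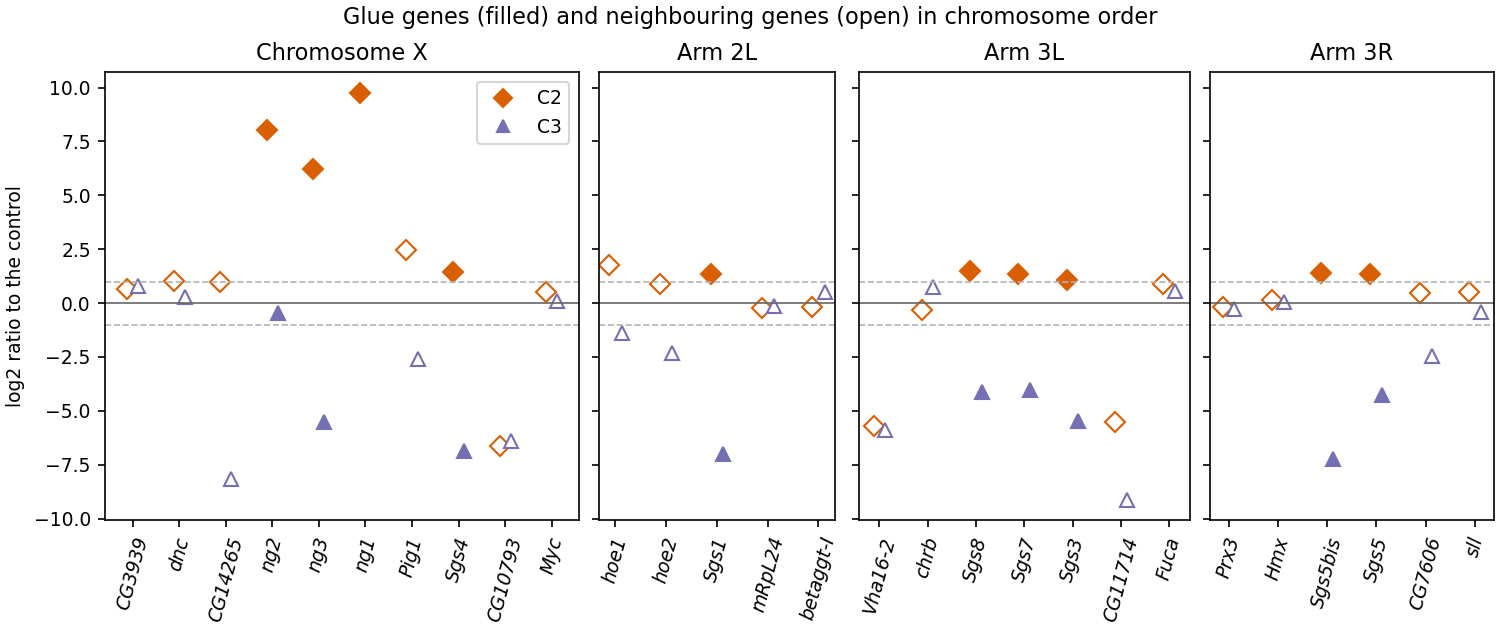
Log2 ratio to the control in C2 (diamonds) and C3 (triangles) for glue genes (filled) and the compared neighbours (open), in order along each chromosome, with dashed lines at a 2-fold difference. CG14265 and Pig1 on the X are lower than the control in C3, at -8.15 and -2.58, while Hmx and Prx3 on the side of Sgs5bis stay within 2-fold.

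Genes that act on glue were followed in the same libraries. Their levels here and below are those of whole larvae, not of the salivary gland alone. Among 14 transcription factor genes of the gland and of the ecdysone response, the C2 and C3 libraries each had 3 higher and 3 lower than the control. The share lower was near that over all compared genes (20.0% in C2 and 21.8% in C3), beside 8.96% and 6.02% called higher. C4 had 1 higher and 2 lower, beside 9.02% of all compared genes called higher and 3.15% lower. C1 had 1 higher (Eip93F, 3.15-fold) and none lower, beside 5.12% and 18.0%. C5 had none of either kind, beside 4.86% and 18.6%. fkh, the forkhead factor that salivary glands need for glue transcription, stood at 55.4 CPM in the control and between 39.1 and 65.7 in the others. sage, a helix-loop-helix factor of the salivary gland, measured 118 CPM in C2, 73.5 in C5, 70.2 in the control, 56.2 in C1, 50.9 in C4 and 20.7 in C3. It was 3.40-fold lower in C3. EcR, the ecdysone receptor, was 2.05-fold higher in C2 (204 CPM) and 4.41-fold lower in C3 (22.6 CPM) than in the control (99.6 CPM). usp, its partner, and br, the early gene required for glue induction, stayed within 2-fold in all 5 comparisons. Plain CPM moves every log2 ratio in C2 by -0.30, which takes EcR (0.74), ftz-f1 (0.91) and dnc (0.73) there below 2-fold and Hr39 (-1.15) past it. The C2 count of factors is then 1 higher and 4 lower.

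Hr3 and Eip93F, factors of the later ecdysone response, had another order of libraries. Hr3 stood at 250 CPM in C3, 150 in C1, 148 in C4, 90.9 in the control, 84.7 in C5 and 15.3 in C2. Eip93F measured 79.9 CPM in C3, 58.9 in C1, 42.4 in C4, 18.7 in the control, 13.9 in C5 and 8.11 in C2. Both were lowest in C2 and highest in C3. Hr4 was 5.22-fold lower in C2 and 3.73-fold lower in C4, Eip74EF was 3.04-fold lower in C4, and Eip75B was 3.15-fold lower in C3. CrebA, a driver of secretory genes, was 2.22-fold higher in C3, and sens (3.25-fold) and, under TMM scaling, ftz-f1 (2.31-fold) were higher in C2 at no more than 10.8 CPM.

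Of 17 genes for glycosylation, granule formation and release, none passed the rule in any of the 5 comparisons under TMM scaling. Over all compared genes, 4.86% (C5) to 9.02% (C4) were called higher and 3.15% (C4) to 21.8% (C3) lower. Pgant9, which adds sugars to Sgs3, stood at 103 CPM in the control and between 63.3 and 100.1 in the others, and Tango1, a cargo receptor for large secreted proteins, at 147 CPM and between 144 and 159. These genes are expressed in many larval tissues. Among 6 other genes linked to the salivary gland, Pig1 among them, 5 were higher in C2, beside 8.96% of all compared genes. In C3 3 were lower and 1 was higher, beside 21.8% and 6.02%. The prolyl hydroxylase genes PH4alphaSG1 and PH4alphaSG2 were higher in C2 and lower in C3. PH4alphaSG1, which passed the filter only through C2, had 0.923 CPM in the control, 5.70 in C2 and 0 counts in C3, at least 23.4-fold lower against the floor of 3 counts. PH4alphaSG2 had 3.12 CPM in the control, 9.76 in C2 and 0.118 in C3. Amyrel, an amylase-related gene, was higher than the control in all 5 libraries.

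The late salivary gland cluster was compared by its own values. Of 9 Eig71E genes that passed the filter, 6 did so only through C3 and C4, so their higher level there was a condition of passing. Of the other 3, Eig71Ea had 336 CPM in C3 and 391 in C4 against 1.64 in the control. Eig71Eg had 2994 counts in C3 and 11370 in C4 against 55 in the control. Eig71Ee, which encodes a mucin-like protein of the salivary gland, stood at 5472 CPM in the control, 3999 in C5, 2787 in C2, 2312 in C1, 1595 in C4 and 88.6 in C3. It was lowest in C3, like the Sgs genes.

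Summed muscle and larval cuticle RNA, like glue RNA, was highest in C2 and lowest in C3. The fat body and midgut sums were not lowest in C3, though single genes of these lists were. Muscle RNA over 15 genes summed to 28111 CPM in C2, 10387 in C5, 8571 in C1, 7804 in the control, 7067 in C4 and 2625 in C3. In C2 15 of 15 muscle genes were higher, beside 8.96% of all compared genes called higher and 20.0% lower. In C3 13 of 15 were lower, beside 21.8% called lower and 6.02% higher. Larval cuticle RNA summed to 7291 CPM in the control, 34857 in C2 and 411 in C3. Of its 6 compared genes 5 were higher in C2 and 5 lower in C3, beside the same shares over all compared genes. Cpr97Ea went the other way, lower in C2 (log2 -1.53) and higher in C3 (log2 1.43). The seventh, Cpr65Ax1, was at 0 counts in every library and was not compared. Fat body RNA over 7 genes ran from 52331 CPM in C4 to 150420 in C5, with 94152 in the control, 96865 in C3 and 148869 in C2. Midgut RNA over 10 genes ran from 412 CPM in C4 to 1516 in C1, with 567 in the control, 738 in C3 and 849 in C2. In C2 4 of 7 fat body genes and 6 of 9 compared midgut genes were higher and none was lower. In C3 2 fat body genes were higher and 1 lower, and 3 midgut genes were higher and 3 lower. Lsp1beta of the fat body list and Amy-p, LysB and LysD of the midgut list were each highest in C2 and lowest in C3. Others went the other way in C3, with Fbp2 and apolpp of the fat body list 3.20-fold and 3.83-fold above the control. Jon44E, Jon99Ci and Jon99Fii of the midgut list were 28.0-fold, 6.25-fold and 4.25-fold higher in C3 than in the control. The part of tissue make-up and of male germline RNA in the glue values was not tested.

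**Figure D5:**
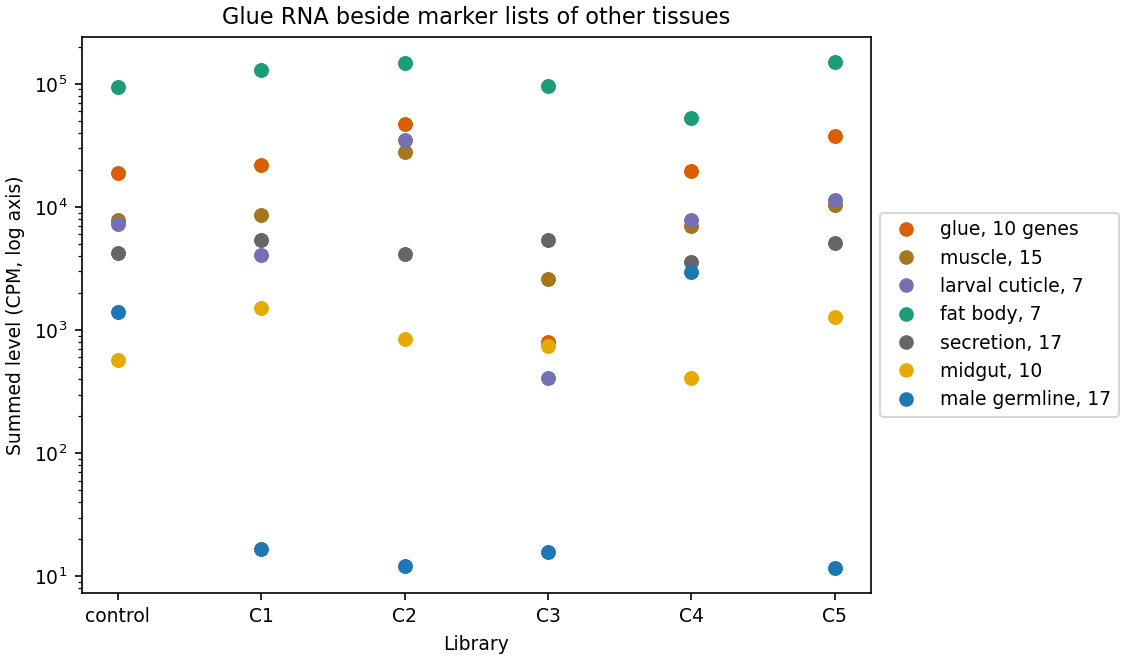
Summed level of the glue genes and of marker lists of other tissues in each library (y axis, CPM on a log axis, 1 point per list and library). Glue, muscle and larval cuticle sums are all highest in C2 and lowest in C3, while male germline RNA is high only in the control and C4.

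The genes most like the Sgs genes were sought among 9356 other genes whose mean level reached 5 CPM. Likeness was the root mean square distance between a gene's log2(CPM + 0.5), centred over the 6 libraries, and the mean profile of the 7 Sgs genes, and it is a description over 6 libraries, between which tissue markers differed too. By Pearson's r in its place, 3 of the 10 nearest genes were shared. The nearest was CG15404 at a distance of 0.25 (Pearson r 0.99), with 585 CPM in C2, 531 in C5, 363 in C4, 334 in C1, 218 in the control and 5.53 in C3. Its neighbour on chromosome 2L, CG31698, was next at 0.54. zye (0.55), the mucin gene Muc96D (0.57), CG8299 (0.58), the cuticle gene Lcp1 (0.70), Sgsf (0.71), CG14265 (0.72), CG17134 (0.73) and CG13460 (0.77) followed. Sgs3 itself lay 0.15 from the mean of the other Sgs genes, Sgs5bis 1.16, ng3 1.47, ng2 2.19 and ng1 2.23.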

How the data were processed

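For each library the authors deposited estimated counts per RefSeq transcript, unscaled for depth, and RPKM values computed by the authors. The labels' protocols give TRIzol extraction, removal of ribosomal RNA, a stranded TruSeq kit and paired-end Illumina sequencing. Tools listed in the submitters' processing notes are bcl2fastq, TopHat and Partek, with the dm6 build. What each tool did, in which version, and whether counting used the strand are not stated there. Of 34966 transcripts 34780 (99.5%) matched a gene of the Release 6 plus ISO1 MT annotation, and the rest held at most 0.130% of the counts of a library. Counts were summed per gene and rounded. Values of 1000000 or more were deposited with 3 significant digits, which touched Sgs7 in C2 and C5 and moved it by at most 0.0636% against its RPKM. Library totals on genes were multiplied by TMM factors (edgeR 4.0.16, R 4.3.3) that ran from 0.890 (C2) to 1.19 (C4), with 1.09 for the control library. A count of 0 took a floor of 3 counts, and no ratio was given where both counts were at or under 3. No test across genes was made, since each genotype had 1 library. The ratio rule was checked on simulated counts that held counting error alone and took no TMM step. That check cannot speak to spread between larvae of the same genotype. Neighbours were the compared protein-coding genes inside or overlapping a glue locus and the nearest 2 on each side.

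The members and the gene lists, which were written from general knowledge, were chosen with earlier results of these data known. The text names all members, their neighbours, the 10 genes most like the Sgs genes, the 10 most like ng3, and genes of the salivary gland lists. Genes of the fat body, midgut and larval cuticle lists were named by their values in these libraries. Alternatives were DESeq2 1.42.0 size factors, plain CPM, ribosomal protein scaling (88 genes), TMM without genes nearly absent from the libraries without male RNA, the authors' RPKM, transcripts for genes, other filters and folds, and, chosen after seeing the data, C4 as the comparator. A planned search for promoter motifs was not made, and no sequences were used here.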

Additional observations from a re-analysis of the deposited data

Results flagged for a closer look

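Glue genes called higher than the control in 1 transgenic library and lower in another were looked at again. With 1 library per genotype these differences between libraries were not tested. ng3 differed by 11.72 on the log2 scale between C2 and C3, Sgs5bis by 9.52 between C1 and C3, Sgs1 by 8.65 between C5 and C3, and Sgs4 by 8.32 between C2 and C3. Between C2 and C3, Sgs3 differed by 6.55, Sgs8 by 5.60, Sgs5 by 5.58 and Sgs7 by 5.40.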

How the results depend on the processing

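No paired analysis was possible because each genotype had 1 library, and for the same reason no library could be left out of a genotype. No called gene changed direction under any alternative that was run, while the median in C4, 0.01 under TMM, took either sign. The median log2 ratio of the glue genes in C1 to C5 was 0.09, 1.13, -5.60, 0.13 and 0.73 with plain CPM, 0.34, 1.16, -5.59, 0.42 and 0.85 with ribosomal protein scaling, and 0.09, 1.11, -5.64, 0.12 and 0.73 with the authors' RPKM. In C1 to C4 it was 0.22, 1.37, -5.53 and 0.02 with TMM without the genes of male RNA. DESeq2 size factors gave 0.23 in C1 and 0.03 in C4, transcripts gave 0.24 in C1, -5.51 in C3 and 0.03 in C4, and a mean of at least 5 CPM gave 0.22 in C1, 1.38 in C2 and -0.05 in C4, with ng1 and ng2 left out. With C4 as the comparator, chosen after seeing the data, it was 0.34 in C1, 1.57 in C2 and -5.36 in C3, and 1 gene, ng2, was lower in C5. The number of genes higher in C5 was 2 with plain CPM, ribosomal protein scaling or RPKM, 8 at 1.5-fold and 1 at 4-fold. In C2 3 genes were higher at 4-fold, and in C4 1 gene was higher with the filter of 5 CPM. The cause of these shifts was not tested. ng1 and ng2 had at most 6 and 5 counts in several libraries, which limits any order among those.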

Other observations

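Genes with profiles near that of ng3 were largely other than those near the Sgs genes, with CG17134 in both sets of 10. Alp7, an alkaline phosphatase gene, was nearest at a distance of 0.58 over the 6 libraries, with 702 CPM in C2, 450 in C1, 102 in C5, 83.5 in C4, 20.4 in the control and 3.77 in C3. The mucin gene Muc68Ca followed (0.62), with 198 CPM in C2, 39.5 in C1, 20.7 in C4, 17.8 in C5, 12.1 in the control and 0.408 in C3. Next came CG11300 (0.74), CG32198 (0.81), the peroxidase gene Pxd (0.90), the cuticle gene Lcp9 (0.93), CG17134 (0.97), the odorant-binding protein gene Obp56a (0.98), CG10073 (1.05) and the chitin-binding protein gene obst-E (1.09). Like ng3, each of the 10 was higher in C2 than in the control and lower in C3. Since they were picked by closeness to the profile of ng3 in these same libraries, this shared direction follows from the choice. By Pearson's r in place of the distance, 1 of these 10 genes was shared.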
